A study of Homo sapiens with 12 samples.

Results

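BST2, LY6E, PLSCR1, RTP4 and TMEM140 are interferon-stimulated genes whose proteins sit in or work at cell membranes. The 5 genes were taken from the deposited gene table by symbol, which gave 5 rows of 60099, and all 5 were among the 19944 genes with enough counts to be tested. They were followed in RNA sequencing of Cal27 and HN30, established lines of human head and neck squamous cell carcinoma (HNSCC), left untreated or given IFNα for 24 h. The 12 samples carry letters from A to F with replicates 1 and 2. Samples of letters A and D had no IFNα, those of B and E had 20 ng/ml, and those of C and F had 200 ng/ml. The letters form line sets A-C and D-F, each with the 3 doses, and they stand for the 2 lines, although the labels do not say which set is which line. The labels name no deleted or overexpressed gene, and each line stands for a single tumor. The labels do not say that replicates came from separate cultures, so p-values measure the spread between these samples, which may be technical.

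In the coordinates of GRCh38, BST2 (ENSG00000130303) occupied chr19:17402939-17405648 on the reverse strand and had 3 annotated transcripts. LY6E (ENSG00000160932) lay on the forward strand of chromosome 8 and had 15. PLSCR1 (ENSG00000188313) occupied chr3:146515180-146544864 on the reverse strand and had 19 transcripts, while RTP4 (ENSG00000136514), at chr3:187368332-187372076 on the forward strand, had 1. TMEM140 (ENSG00000146859) occupied chr7:135148072-135166215 on the forward strand and had 2.

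IFNα is a type I interferon. It binds the receptor chains IFNAR1 and IFNAR2 on the cell surface, the kinases JAK1 and TYK2 then signal to a complex holding STAT2 and IRF9 that binds GAAA-containing elements in the promoters of interferon-stimulated genes. Many proteins made in this way act inside the cell on viral RNA. The genes described here encode proteins that sit in or work at cell membranes, although not all are known to meet a virus there. BST2, also called tetherin, holds budding enveloped virions on the cell surface. LY6E is a small surface protein on a glycosylphosphatidylinositol anchor that alters the entry of several viruses. PLSCR1 is a phospholipid scramblase of the plasma membrane, RTP4 is a receptor transporting protein that helps some receptors reach the surface and restricts RNA viruses, and TMEM140 is a multi-pass membrane protein about which less is known.

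The promoters of these genes are shown because they carry the sequence that the interferon-activated complex is known to bind. RefSeq promoters of GRCh38.p14, running from 250 bases before to 50 bases after a gene's start, were at hand for 4 of the 5 genes, LY6E being the gene without an entry. The pattern searched was GAAA, any 2 bases, and GAAA again, on both strands. It was present in the promoters of all 4 genes, against 3.57% of 35116 promoters. Each line below gives 30 bases in the direction of transcription, with the bases of the matches in capitals.
BST2: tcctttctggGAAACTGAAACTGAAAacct
PLSCR1: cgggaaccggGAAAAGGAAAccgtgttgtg
RTP4: tccatacacaGAAACAGAAActgaaccgaa
TMEM140: gttaggaaacGAAAGTGAAAtcagctgata
The BST2 stretch, at chr19:17405741-17405770 on the reverse strand, held 2 overlapping matches, at -130 to -121 and at -124 to -115 from the RefSeq start. The PLSCR1 stretch, at chr3:146544667-146544696 on the reverse strand, held a match at -79 to -70. The RTP4 stretch, at chr3:187368333-187368362 on the forward strand, held a match at -42 to -33, and a further match of the same kind lay outside it at -18 to -9. The TMEM140 stretch, at chr7:135148009-135148038 on the forward strand, held a match at -53 to -44. The stretches of PLSCR1 and RTP4 touched an annotated exon of their own gene, whereas those of BST2 and TMEM140 did not. The only annotated RTP4 transcript starts at chr3:187368332, and the annotated PLSCR1 gene starts at chr3:146544864 on the reverse strand. The matches in these stretches thus lay before the RefSeq start but inside the annotated gene. The pattern TTCNNNGAA was also searched. It was found in the promoters of BST2, with 2 matches, and PLSCR1, with 1, against 7.66% of all promoters, and was not found in those of RTP4 and TMEM140. The upstream match of this pattern in BST2, at -136 to -128, overlapped the first match of the GAAA pattern. A match describes the letters of the window and does not show that a protein was bound there.

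Total estimated counts per sample ran from 10517448 to 16056734, and the controls, at 12670755 or more, were all deeper than the samples at 200 ng/ml, at 11854183 or less. Between samples, log2 expression over 13033 genes correlated at 0.94 to 0.976 within a line set and at 0.678 to 0.717 between line sets. All 8 squamous markers examined were present in line set A-C, and 7 of 8 in line set D-F, where KRT14, a keratin of basal squamous cells, was at or near 0. Of 6 leukocyte markers, CD3E, MS4A1 and LILRA4 were at 0 in all samples and PTPRC did not exceed 0.0425 TPM, the deposited level scaled for transcript length and depth. The summed TPM of the leukocyte list was 5.34 to 10.2 in controls, 13.1 to 28.4 at 20 ng/ml and 17.4 to 39.6 at 200 ng/ml, nearly all of it from CD68, a lysosomal protein gene. Of the 4 fibroblast markers, whose summed TPM was 4.64 to 13.8, COL1A1 was present in every sample at 3.43 TPM or more, COL1A2 did not exceed 1.73 TPM, and DCN and PDGFRA did not exceed 0.121 TPM. The endothelial markers PECAM1 and VWF did not exceed 0.576 TPM, while CDH5 was at 15.2 to 21.7 TPM in A-C. The part of depth and of CD68 in the results was not tested. In bulk RNA, fewer cells of a type and less RNA per cell cannot be told apart.

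**Figure D1:**
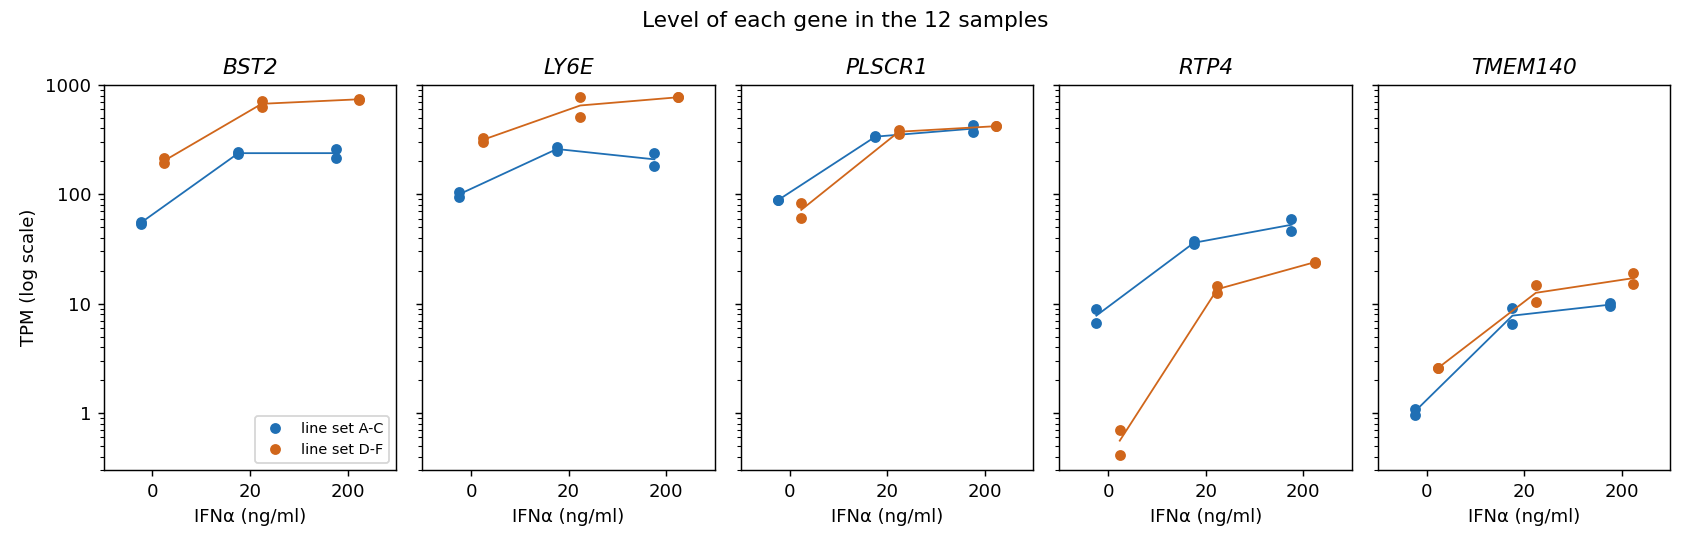
TPM on a log axis against IFNα dose in ng/ml for the 5 genes, with 1 point per sample, lines through the means of 2 replicates, line set A-C in blue and line set D-F in orange. Every treated sample sits above the controls of its line set, BST2 and LY6E are higher in D-F at each dose, and RTP4 is higher in A-C at each dose.

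All 5 genes rose at 200 ng/ml, from 2.16-fold for LY6E to 16.2-fold for RTP4 on average over the line sets. A called gene is one with a fold change of 2 or more, up or down, and an adjusted p of 0.05 or less in edgeR's quasi-likelihood test with Benjamini-Hochberg adjustment over all genes tested. At 200 ng/ml 5 of 5 genes were called higher, against 1.58% of all genes tested, and the median log2 fold change was 2.33 for the 5 genes and -0.01 for all genes. At 20 ng/ml 5 of 5 were again called higher, against 0.963% of all genes, with a median of 2.15. In TPM, every sample at 200 ng/ml lay above both controls of its line set for 5 of 5 genes, which 8.55% of all genes did, and the same held at 20 ng/ml, where 6.97% of genes did. The comparisons at 20 and 200 ng/ml share their control samples. A fit that ignored the line sets, in which the gap between them counts as spread, called 2 of the 5 at each dose, PLSCR1 and TMEM140.

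BST2 was present before treatment and rose 3.93-fold at 200 ng/ml and 3.73-fold at 20 ng/ml. In A-C its TPM was 56.1 and 53.6 in the controls, 242 and 233 at 20 ng/ml, and 261 and 214 at 200 ng/ml. In D-F it was 213 and 193 in the controls, 716 and 628 at 20 ng/ml, and 743 and 736 at 200 ng/ml. The controls stood apart from all treated samples of their set, while the samples at 20 and 200 ng/ml overlapped in A-C and did not overlap in D-F. The untreated D-F samples were close to the treated A-C samples, with means of 203 ± 14.1 TPM in D and 238 ± 33.1 TPM in C (SD, n = 2 each). The log2 fold change was 1.97 ± 0.08 (SE) at 200 ng/ml (edgeR adjusted p = 1.8e-07) and 1.90 ± 0.08 at 20 ng/ml (edgeR adjusted p = 3.16e-07).

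LY6E had the smallest rise of the 5, 2.16-fold at 200 ng/ml, and its replicates E1 and E2 were far apart. In A-C its TPM was 95.3 and 105 in the controls, 272 and 247 at 20 ng/ml, and 237 and 180 at 200 ng/ml. In D-F it was 326 and 303 in the controls, 784 and 514 at 20 ng/ml, and 768 and 774 at 200 ng/ml. In A-C the samples at 200 ng/ml lay below those at 20 ng/ml, whereas in D-F sample E2 lay far below E1 and the other treated samples were close together. The log2 fold change was 1.11 ± 0.12 (SE) at 200 ng/ml (edgeR adjusted p = 0.000468) and 1.12 ± 0.12 at 20 ng/ml (edgeR adjusted p = 0.000672). Both estimates sat close to the 2-fold threshold, and without sample E1 the value at 20 ng/ml was 0.99, which was no longer called.

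PLSCR1 reached almost the same level in both line sets. In A-C its TPM was 88.2 in each control, 333 and 340 at 20 ng/ml, and 371 and 426 at 200 ng/ml. In D-F it was 83.5 and 60.7 in the controls, 387 and 359 at 20 ng/ml, and 421 and 419 at 200 ng/ml. Within each line set the 3 doses did not overlap and rose in order. The log2 fold change was 2.33 ± 0.08 (SE) at 200 ng/ml (edgeR adjusted p = 5.35e-08) and 2.15 ± 0.08 at 20 ng/ml (edgeR adjusted p = 1.17e-07).

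RTP4 had the highest fold change of the 5 on average over the line sets and within D-F. Within A-C TMEM140 had the highest estimate at 200 ng/ml, 2.93 ± 0.26 on the log2 scale against 2.77 ± 0.18 for RTP4 (SE). The 95% intervals of these estimates overlapped. In A-C the TPM of RTP4 was 8.85 and 6.70 in the controls, 37.1 and 35.0 at 20 ng/ml, and 46.1 and 59.2 at 200 ng/ml. In D-F it was 0.414 and 0.705 in the controls, which rested on 6 and 10 counts, then 14.5 and 12.6 at 20 ng/ml and 24.2 and 23.8 at 200 ng/ml. The 3 doses did not overlap in either set, and the D-F samples lay below the A-C samples of the same dose throughout. The log2 fold change was 4.02 ± 0.15 (SE) at 200 ng/ml (edgeR adjusted p = 1.67e-07) and 3.34 ± 0.15 at 20 ng/ml (edgeR adjusted p = 8.53e-07).

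TMEM140 had the lowest mean TPM of the 5 in every group but the untreated D samples, where RTP4 was lower. Its samples overlapped those of RTP4 in E. In A-C its TPM was 1.10 and 0.968 in the controls, 6.49 and 9.06 at 20 ng/ml, and 9.54 and 10.05 at 200 ng/ml. In D-F it was 2.60 and 2.59 in the controls, 10.5 and 14.7 at 20 ng/ml, and 19.2 and 15.1 at 200 ng/ml. The doses kept their order without overlap in both sets, although E2 and F2 were close. The log2 fold change was 2.77 ± 0.18 (SE) at 200 ng/ml (edgeR adjusted p = 1.09e-05) and 2.51 ± 0.18 at 20 ng/ml (edgeR adjusted p = 2.77e-05), and the gene rested on 18 to 44 counts in the controls.

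**Figure D2:**
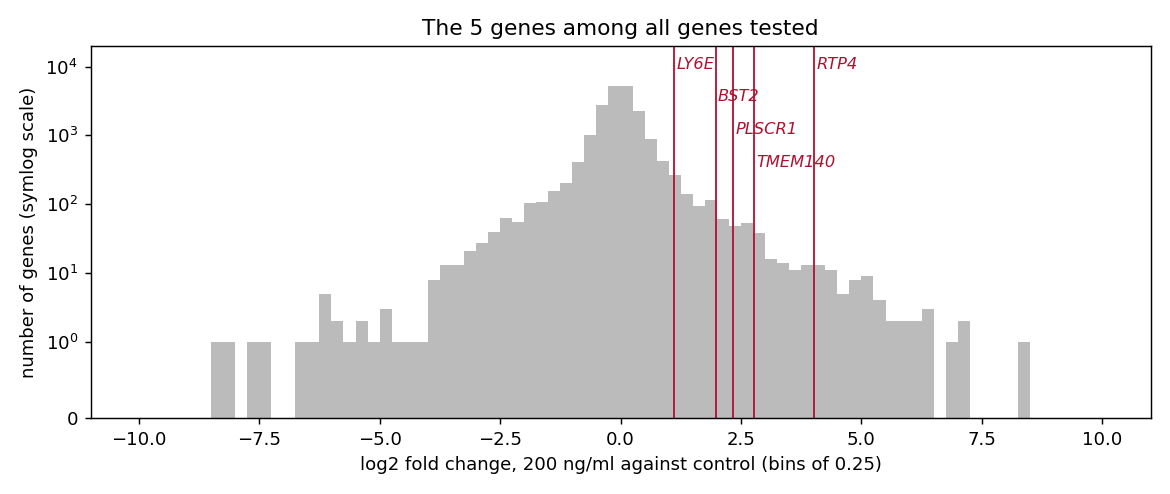
Number of genes (symlog axis) by log2 fold change at 200 ng/ml IFNα against control for the 19944 genes tested, in bins of 0.25, with red lines at the 5 genes. LY6E lies at 1.11, BST2, PLSCR1 and TMEM140 between 1.97 and 2.77, and RTP4 at 4.02.

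The order of the genes by TPM changed with treatment. Untreated A samples ran LY6E, PLSCR1, BST2, RTP4 and TMEM140 from the highest to the lowest, with no overlap between neighbors. At 200 ng/ml in the same line set PLSCR1 led with 399 ± 38.9 TPM (SD, n = 2), and BST2 and LY6E overlapped behind it. In D-F LY6E and BST2 led at each dose, at 315 ± 15.8 and 203 ± 14.1 TPM in D and at 771 ± 3.86 and 739 ± 5.06 TPM in F (SD, n = 2 each), and they overlapped at 20 ng/ml. RTP4 was the lowest of the 5 in D and ranked above TMEM140 in F, with the pair overlapping in E.

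Between 20 and 200 ng/ml, 0 of the 5 genes were called by edgeR, against 0.0451% of all genes, and DESeq2 likewise called 0. At an unadjusted p of at most 0.05 edgeR listed 2 of them, RTP4 and PLSCR1, against 9.26% of all genes. RTP4 was higher at 200 ng/ml by 0.68 on the log2 scale (95% interval 0.41 to 0.96, edgeR adjusted p = 0.104), which was 1.6-fold and below the threshold of 2-fold. PLSCR1 differed by 0.18 (0.02 to 0.34), TMEM140 by 0.26 (-0.10 to 0.62), BST2 by 0.07 (-0.09 to 0.24) and LY6E by -0.01 (-0.28 to 0.26). The intervals of all 5 ended below 1, the log2 value of a 2-fold rise. In TPM, both samples at 200 ng/ml exceeded both at 20 ng/ml in each line set for PLSCR1, RTP4 and TMEM140, which 3.52% of all genes did.

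The line sets differed before treatment for 3 of the 5 genes, in opposite directions, against 26.6% of all genes called between the untreated sets. BST2 and LY6E were higher in untreated D-F than in untreated A-C, by 1.77 ± 0.11 and 1.45 ± 0.17 on the log2 scale (SE, edgeR adjusted p = 1.77e-06 and 0.000116). RTP4 was lower in untreated D-F, with a difference of -3.85 ± 0.25 (edgeR adjusted p = 2.55e-06). PLSCR1, at -0.56 ± 0.10, and TMEM140, at 0.88 ± 0.27, had edgeR adjusted p-values of 0.00167 and 0.0244 and stayed under the 2-fold threshold. With limma on log2(TPM + 1) the difference of PLSCR1 was -0.31 (limma adjusted p = 0.114). TMEM140 passed the 2-fold threshold without sample D1, at 1.05, and with limma on log2(TPM + 0.1), at 1.25. A comparison list of 15 widely studied interferon-stimulated genes, such as MX1, OAS2 and ISG15, had 9 members called lower and 0 called higher in untreated D-F. RTP4 thus differed in the direction of MX1, at -1.43, and OAS2, at -2.79, whereas BST2 and LY6E differed in the other direction.

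With IFNα at 200 ng/ml, the same 3 genes were called between the line sets, against 28.4% of all genes. BST2 was higher in D-F by 1.42 ± 0.11 and LY6E by 1.57 ± 0.17 on the log2 scale, and RTP4 was lower with a difference of -1.36 ± 0.17 (SE, edgeR adjusted p = 5.77e-06, 6.53e-05 and 0.000158). PLSCR1 differed by -0.16 (95% interval -0.39 to 0.07) and TMEM140 by 0.57 (0.06 to 1.07). In mean TPM the A-C to D-F ratio of RTP4 went from 13.9 in the controls to 2.66 at 20 ng/ml and 2.2 at 200 ng/ml. The D-F to A-C ratio of BST2 was 3.7, 2.83 and 3.11 at the 3 doses, and that of LY6E was 3.14, 2.5 and 3.69.

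**Figure D3:**
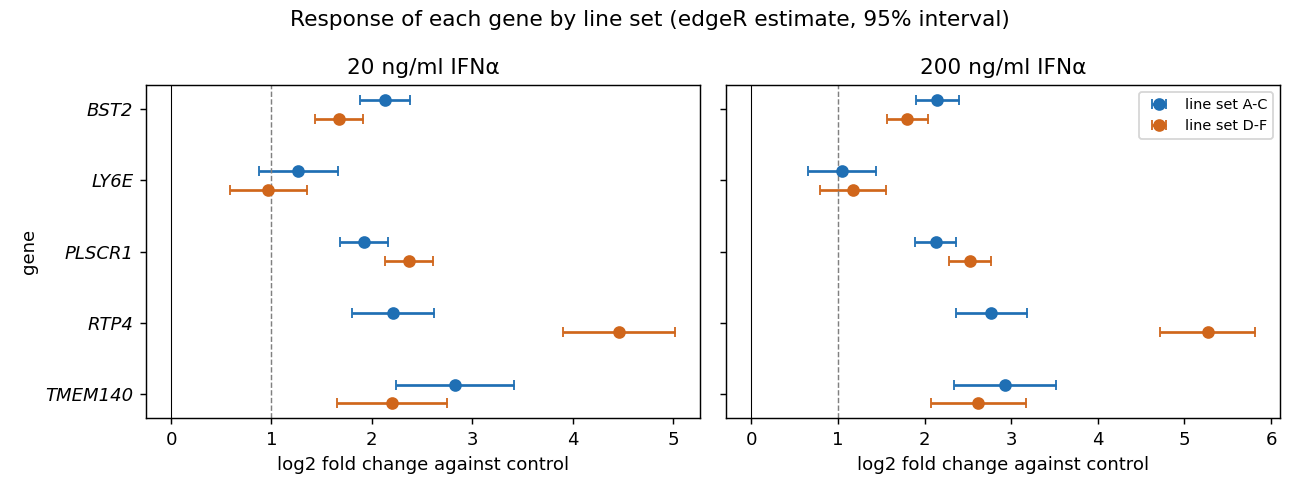
Log2 fold change against control (edgeR estimate with 95% interval) of each gene at 20 ng/ml (left) and 200 ng/ml (right), line set A-C in blue and D-F in orange, with a dashed line at 2-fold. RTP4 in D-F stands apart from RTP4 in A-C at both doses, and LY6E in D-F at 20 ng/ml lies just under the dashed line.

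Within line set A-C all 5 genes were called at 200 ng/ml, against 1.41% of genes called higher, and all 5 at 20 ng/ml, against 0.632%. Within D-F all 5 were called at 200 ng/ml, against 1.67%, and 4 at 20 ng/ml, against 1.2%. The exception was LY6E at 20 ng/ml in D-F, with 0.97 ± 0.17 on the log2 scale (SE, edgeR adjusted p = 0.0143), which is 1.95-fold, and it was called without sample E2, at 1.19, and with limma on log2(TPM + 1), at 1.01. In A-C the rise of LY6E at 200 ng/ml, 1.05 ± 0.17, fell short of a call without A1 (0.96), A2 (1.13) or C1 (0.83), and in a fit of the compared groups alone (1.06, edgeR adjusted p = 0.0639). Its rise at 20 ng/ml in A-C, 1.27 ± 0.17, did so without A1 (1.19) or B1 (1.17).

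RTP4 was the only gene of the 5 called for a difference in response between line sets. At 200 ng/ml its log2 fold change was 2.77 ± 0.18 in A-C and 5.27 ± 0.25 in D-F, a difference of 2.49 ± 0.31 (SE, edgeR adjusted p = 0.00756), against 0.998% of genes called for such a difference. At 20 ng/ml it was 2.21 ± 0.18 and 4.46 ± 0.25, a difference of 2.25 ± 0.32 (edgeR adjusted p = 0.0203), against 0.231% of genes. The larger fold in D-F went with the smaller gain in TPM, since RTP4 gained 44.9 TPM in A-C and 23.4 TPM in D-F at 200 ng/ml from mean controls of 7.78 and 0.559 TPM. With limma on log2(TPM + 1), which damps low levels, the difference at 200 ng/ml was 1.40 (limma adjusted p = 0.0521) and that at 20 ng/ml was 1.14 (limma adjusted p = 0.185), and neither was called. The call at 20 ng/ml was also lost without A1, B1, B2, D1, E1 or E2, with differences from 1.92 to 2.33 and edgeR adjusted p-values from 0.0532 to 0.0959. In the comparison list, 8 of 15 genes were called for a larger response in D-F at 200 ng/ml and 0 for a smaller one, among them MX1 with a difference of 1.28 and IFI44L with 2.83.

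The other 4 genes were not called for a difference in response between line sets. At 200 ng/ml the difference, D-F minus A-C, was -0.34 (95% interval -0.68 to -0.01) for BST2, 0.12 (-0.42 to 0.67) for LY6E, 0.40 (0.08 to 0.73) for PLSCR1 and -0.31 (-1.09 to 0.48) for TMEM140. At 20 ng/ml it was -0.46 (-0.79 to -0.12), -0.30 (-0.84 to 0.24), 0.45 (0.13 to 0.78) and -0.63 (-1.42 to 0.16) for the genes in the same order. As with RTP4, the scale mattered for BST2, whose gain at 200 ng/ml was 183 TPM in A-C and 537 TPM in D-F although the fold in TPM was 4.34 in A-C and 3.65 in D-F. LY6E gained 109 and 457 TPM, PLSCR1 310 and 348 TPM, and TMEM140 8.76 and 14.5 TPM in A-C and D-F.

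The transcript estimates were less certain than the gene sums, because transcripts of a gene share exons and the reads had to be divided between them. Of 40 annotated transcripts of the 5 genes, 36 had enough counts to be tested and 35 of these had a positive log2 fold change at 200 ng/ml. The test called 11 at 200 ng/ml, against 0.343% of all 75876 transcripts called higher, and 10 at 20 ng/ml, against 0.24%. These counts were not steady: 7 were called at 200 ng/ml without A1, A2 or F2, and at 20 ng/ml 6 without A1 or A2 and 5 without D2. BST2-201 (ENST00000252593), the only coding BST2 transcript in the annotation, rose by 1.93 ± 0.09 on the log2 scale (SE, edgeR adjusted p = 0.000154) and made up 96.9 ± 1.16% of BST2 TPM in the controls and 98.6 ± 0.768% at 200 ng/ml (SD, n = 4 each). RTP4-201, the only RTP4 transcript, and TMEM140-201, the coding transcript of TMEM140, rose by 3.96 ± 0.24 and 2.71 ± 0.27 (SE, edgeR adjusted p = 0.00047 and 0.00655).

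PLSCR1 had the largest number of called transcripts, 7 of 17 tested, and also the most transcripts tested. Of the 7, 6 are annotated with types other than protein coding, as are 12 of all 19 PLSCR1 transcripts. Whether the response differed by transcript type was not tested. The coding transcript PLSCR1-214 (ENST00000487389) had a TPM of 13.4 and 13.7 in the A controls and 71.8 and 98.6 in C, and of 7.45 and 9.76 in the D controls and 71.1 and 76.2 in F. It rose by 2.78 ± 0.18 on the log2 scale (SE, edgeR adjusted p = 0.000633). PLSCR1-206, annotated as a retained intron, had 10.8 and 13.8 TPM in A, 53.6 and 62.2 in C, 12.3 and 11.6 in D, and 63.6 and 67.2 in F, a rise of 2.25 ± 0.16 (edgeR adjusted p = 0.00144). PLSCR1-209 and PLSCR1-212, processed transcripts, PLSCR1-217, a retained intron, and PLSCR1-210 and PLSCR1-216, annotated as targets of nonsense-mediated decay, were the others, with log2 fold changes of 2.21 to 2.94.

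LY6E was the gene whose transcripts were divided least steadily. LY6E-214 (ENST00000522971), the transcript with the highest mean TPM, was listed at 0 in A1 and A2, at 91.3 and 74.4 in B and at 59.5 and 33.1 in C. In D-F it had 92.5 and 142 TPM in D, 314 and 71.5 in E, and 316 and 336 in F. It was the only LY6E transcript called at 200 ng/ml, and no fold is given because the A controls were at 0. Sample E2, which was low for the whole gene, had close to the E1 level for LY6E-210, at 132 against 147 TPM, and for LY6E-212, at 109 against 121 TPM. Among these 3 transcripts, only LY6E-214 was far lower in E2 than in E1.

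**Figure D4:**
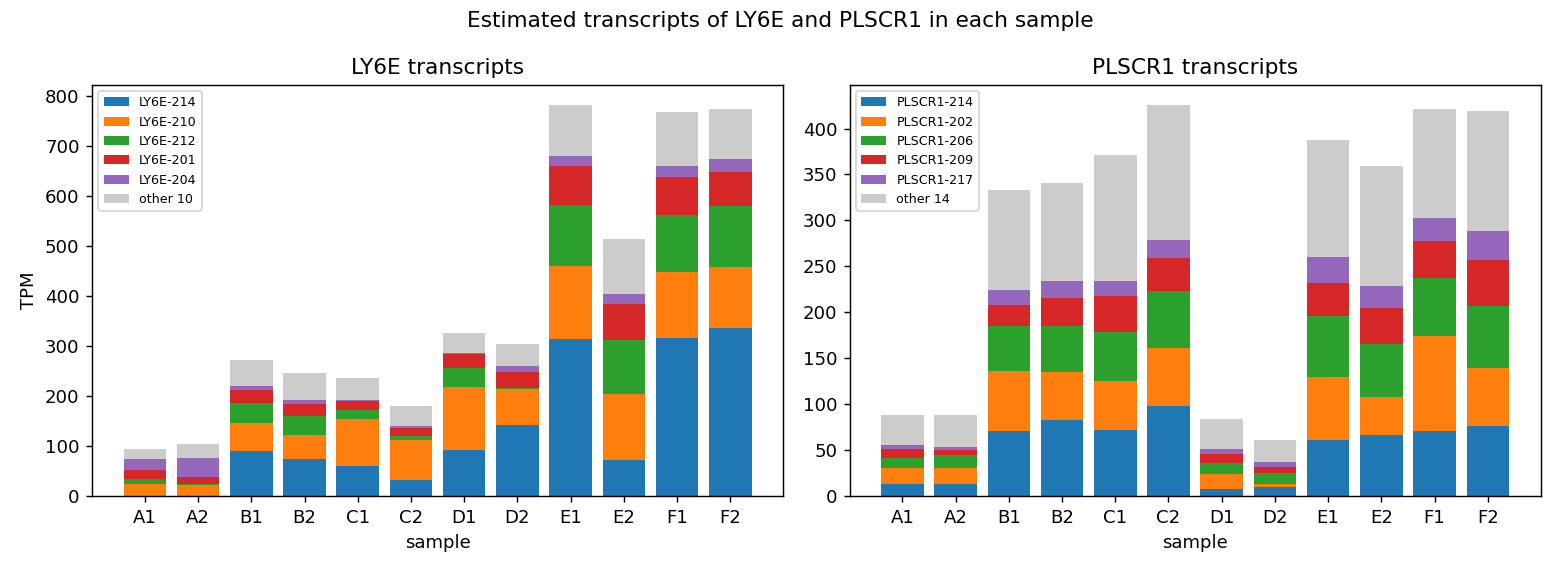
Stacked TPM of the estimated transcripts of LY6E (left) and PLSCR1 (right) in each sample, with the 5 transcripts of highest mean TPM in colors and the rest in gray. LY6E-214 is missing in A1 and A2 and short in E2, while the stacked PLSCR1 transcripts sum to 88.2 TPM in A1 and 426 TPM in C2.

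The share of the leading transcript was compared between controls and 200 ng/ml by an exact two-sided permutation test that exchanged doses within line sets, where 36 arrangements allow no p below 0.0556. The leading transcript had the highest mean TPM over all 12 samples, so treated samples took part in the choice, which can favor a rise in share. With the transcript leading in the controls instead, the difference was only 1.97 percentage points for LY6E and 1.01 points for PLSCR1. The share of BST2-201 differed by 1.73 percentage points and that of PLSCR1-214, from 13.9 ± 3.36% to 19.4 ± 2.69%, differed by 5.46 points, each with an exact p of 0.0556 and an adjusted p of 0.111 over 4 genes. LY6E-214 went from 18.8 ± 23.0% to 32.0 ± 12.2% (SD, n = 4, exact p = 0.167) and TMEM140-201 from 87.3 ± 16.5% to 78.2 ± 3.98% (exact p = 0.278). Leaving out D1 or D2 moved the difference most, to -15.5 or -2.86 points for TMEM140, 8.62 or 17.8 points for LY6E and 3.67 or 7.25 points for PLSCR1. These differences did not pass the threshold, which this design could not reach.

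Other antiviral genes that act at membranes were mixed in their response. Of 14 listed, 13 were tested, 6 were called higher at 200 ng/ml and 5 at 20 ng/ml, against 1.58% and 0.963% of all genes, 0 were called lower, and the median log2 fold change at 200 ng/ml was 0.72. The count at 200 ng/ml was 5 without A1, C2 or F1. The called genes at 200 ng/ml were RSAD2 (viperin, an enzyme on lipid droplets and the endoplasmic reticulum) at 5.30 ± 0.10, IFITM1, IFITM2 and IFITM3 (inhibitors of virus fusion) at 4.74 ± 0.43, 2.02 ± 0.18 and 2.46 ± 0.18, GBP5 (a guanylate-binding protein of the Golgi) at 4.02 ± 0.33, and LGALS3BP (a secreted glycoprotein) at 1.03 ± 0.08 (log2, SE). LGALS3BP was the gene not called at 20 ng/ml, at 0.83 ± 0.08. IFITM1 rested on replicates that differed in F, with 635 and 162 TPM.

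SERINC3 and SERINC5, which hinder retrovirus entry, had log2 fold changes of -0.26 ± 0.06 and -0.52 ± 0.07 at 200 ng/ml. These falls had edgeR adjusted p-values of 0.0305 and 0.00182 but were smaller than 2-fold. ZMPSTE24, a membrane protease, had 0.07 ± 0.06. NCOA7 and CNP rose by 0.60 ± 0.07 and 0.72 ± 0.15, also below 2-fold (edgeR adjusted p = 0.000969 and 0.0159). The ubiquitin ligases MARCH2 and MARCH8 had -0.40 ± 0.20 and -0.16 ± 0.10. None of these genes was called, and CH25H was too low to be tested. Between untreated line sets 4 of the 13 were called lower in D-F and 1 higher, against 26.6% of all genes called. IFITM1, IFITM2, IFITM3 and GBP5 were lower, as RTP4 was, with log2 differences of -4.03, -5.11, -1.43 and -3.26, and MARCH2 was higher. IFITM2 and IFITM3 were called for a larger response in D-F at 200 ng/ml, against 0.998% of all genes called. Their differences were 2.59 ± 0.36 and 1.64 ± 0.34 (SE, edgeR adjusted p = 0.011 and 0.0455). At 20 ng/ml IFITM2 was called and IFITM3 was not (edgeR adjusted p = 0.0208 and 0.0884).

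**Figure D5:**
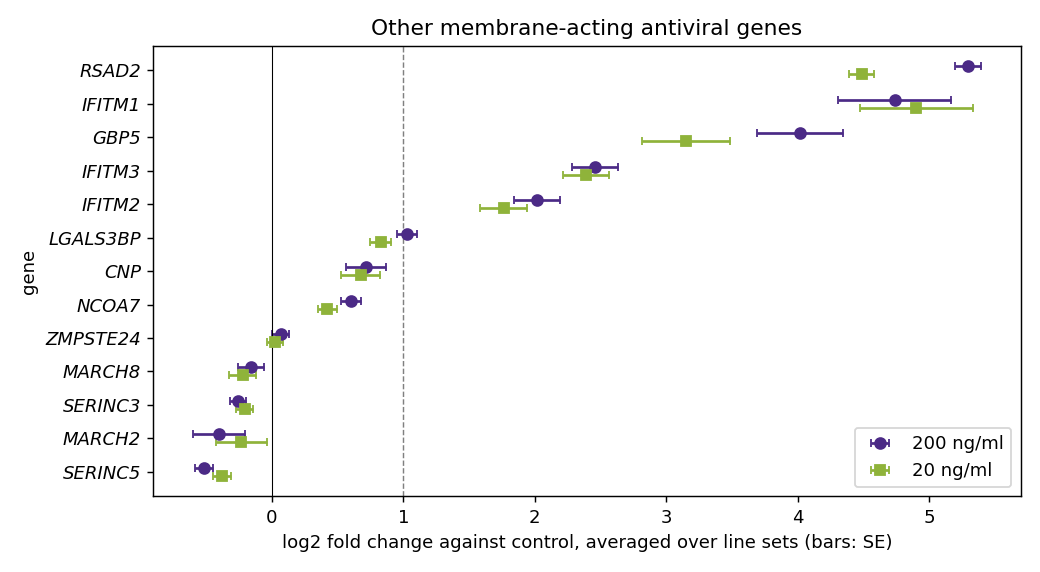
Log2 fold change against control, averaged over the line sets, of 13 other membrane-acting antiviral genes at 200 ng/ml (circles) and 20 ng/ml (squares), with bars for the SE and a dashed line at 2-fold. The 6 genes from RSAD2 to LGALS3BP pass 2-fold at 200 ng/ml, and the other 7 lie between -0.52 and 0.72.

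Relatives by protein family were listed for PLSCR1, RTP4 and LY6E. Of 24 genes listed as scramblases, receptor transporting proteins and LY6/uPAR proteins, 13 were tested and 0 were called by edgeR at either dose, with 2 at an unadjusted p of at most 0.05 at each dose and 0 called by DESeq2. Since 1.58% and 0.963% of all genes were called higher at 200 and 20 ng/ml, a count of 0 does not set these relatives apart from other genes. The median log2 fold change was 0.17 at 200 ng/ml, and the highest value was 0.77 at 200 ng/ml and 1.04 at 20 ng/ml. PLSCR3 and PLSCR4, scramblases like PLSCR1, had -0.22 ± 0.17 and 0.40 ± 0.22. PLAUR, the urokinase receptor, had 0.77 ± 0.12 (edgeR adjusted p = 0.00383), below 2-fold, and CD59, an inhibitor of complement, had 0.02 ± 0.46. RTP1, RTP2 and RTP5, relatives of RTP4, were listed at 0 in the controls and at 200 ng/ml. A further relative, RTP3, had 6.01 to 6.14 TPM in A and 10.7 to 11.5 TPM in C, and was at 0 in D and F. Its log2 fold change averaged over the line sets, 0.44 with an SE of 508, is therefore not informative.

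In the interferon pathway itself, STAT2 and IRF9 were called higher at each dose. With 200 ng/ml STAT2 rose by 1.80 ± 0.08 and IRF9 by 2.69 ± 0.13 on the log2 scale, while the receptor chains IFNAR1 and IFNAR2 had -0.11 ± 0.07 and 0.10 ± 0.18 and the kinases JAK1 and TYK2 each had 0.02 with SEs of 0.05 and 0.08, and none of these 4 was called. All 15 genes of the comparison list were called at each dose, with a median of 4.01 at 200 ng/ml. RTP4 lay near that median, with 7 of the 15 above it, whereas TMEM140 had 13 above it, BST2 and PLSCR1 14, and LY6E all 15.

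Genes beside the 5 were also read, since a neighbor may share a promoter or reads. The table held 10 genes within 10 kb, of which 8 were tested and 4 were called higher at 200 ng/ml, against 1.58% of all genes. BISPR, a long noncoding RNA that starts 45 bases from BST2 on the opposite strand, rose by 1.33 ± 0.20 on the log2 scale (SE, edgeR adjusted p = 0.00362). MVB12A, which starts 73 bases from BST2 on the same strand as BISPR and overlaps it, had -0.22 ± 0.10 and was not called. MSTRG.70813, an assembled gene without a name 2014 bases from LY6E on its strand, rose by 1.83 ± 0.10 (edgeR adjusted p = 2.86e-06). AC083862.2, 2187 bases from TMEM140 on its strand, rose by 4.26 ± 0.51 from 0 to 6 counts per control to 33 to 64 counts at 200 ng/ml. CCDC194, 8780 bases from BST2 on its strand, rose by 2.30 ± 0.42 and held 2 to 3 counts in the A controls. Libraries kept the strand of origin according to the labels, but the strand setting of the counting is not given in the sources used here, so genes that overlap are uncertain. BISPR and MVB12A overlap on the same strand. LY6E and TMEM140 are overlapped on the opposite strand by AC105202.1, with 0.82 ± 0.17, and C7orf49, with -0.14 ± 0.13, neither of which was called.

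Across the 12 samples, the genes whose log2 expression followed each of the 5 most closely differed. PLSCR1 ran with MX1, MX2 and USP18, with Pearson's r of 0.9961, 0.9955 and 0.9948. TMEM140 ran with DDX60 (0.9757), SAMHD1 (0.9737) and IFIT5 (0.973), and RTP4 with LINC01285 (0.9828), DHX58 (0.9824) and NMI (0.9815). BST2 ran with PDZD2 (0.9805), DDX60L (0.9803) and AP000695.1 (0.9728), and LY6E with NFE2L3 (0.9871), CLEC7A (0.9855) and H1F0 (0.9725). Among the 5, r was 0.961 for BST2 and LY6E and 0.91 for PLSCR1 and TMEM140, but 0.269 for BST2 and RTP4 and 0.056 for LY6E and RTP4. These values describe 12 samples in which dose and line set are shared by all genes, and they carry no test.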

How the data were processed

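RNA depleted of rRNA was sequenced in 12 samples, 2 for each of 6 groups of line set and dose, mapped to groups from the sample titles. The submitters' processing notes name Trimmomatic 0.36, HISAT2 2.1.0, StringTie 1.3.3b and GRCh38.p10, without their settings. The authors deposited estimated counts, not scaled for depth, and TPM and FPKM values scaled for length and depth, for 60099 genes and 201521 transcripts. FPKM was not used here. Levels are TPM as deposited. Fold changes came from the estimated counts, stored as whole numbers with any fraction dropped. They were fitted with edgeR 4.0.16 in R 4.3.3 (TMM, filterByExpr, quasi-likelihood test, Benjamini-Hochberg), in 1 fit of 6 groups over the whole table. Each SE was derived from the estimate and its F statistic (estimate over root F). Alternatives were RLE size factors, DESeq2 1.42.0, limma 3.58.1 on log2(TPM + 1) and log2(TPM + 0.1), no count filter, a replicate block, only the groups compared, no line set, and each sample left out in turn. The line sets were also compared at 20 and 200 ng/ml, which was added after the data had been seen. Scripts were tested on simulated data. The named genes are the 5 members, the listed membrane, family, pathway and comparison genes, neighbors within 10 kb, and for each member the 3 genes with the highest Pearson's r on log2 CPM computed with a prior count of 2. A gene of the pathway list is not reported here. Members and lists were chosen with earlier results of these data known. Transcript types are from GENCODE release 29. Spread, as edgeR's common coefficient of variation, was 0.196 between gene counts and 0.837 between transcript counts, and with 2 replicates per group this limits the precision. Total counts per sample were 10517448 to 16056734. Python 3.11.15, pandas 2.3.3, numpy 2.4.6 and matplotlib 3.10.9 made tables and figures.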

Additional observations from a re-analysis of the deposited data

Results flagged for a closer look

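RTP4 was singled out because its response to IFNα differed between the line sets by a test of the difference itself, D-F minus A-C, in edgeR's fit over all genes. The difference on the log2 scale was 2.49 at 200 ng/ml and 2.25 at 20 ng/ml, and the 2 comparisons share their control samples. The D controls behind both values held 6 and 10 RTP4 counts.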

How the results depend on the processing

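The other membrane-acting genes called at 200 ng/ml were 5 without a count filter. All 5 genes stayed called at 200 ng/ml in each alternative run other than the fit without line sets, which called 2 at 200 and 2 at 20 ng/ml, 3 and 2 of the other membrane-acting genes at those doses, and 1 neighbor. At 20 ng/ml 4 to 5 were called when samples were left out in turn. The RTP4 difference between line sets gave 0 calls at 200 ng/ml with limma on log2(TPM + 1), and at 20 ng/ml 0 calls with limma on log2(TPM + 1) or log2(TPM + 0.1), with only the groups compared, and 0 to 1 when samples were left out. For the small differences between doses the sign was not fixed: with samples left out, BST2 ran from -0.013 to 0.15 and LY6E from -0.12 to 0.115, LY6E being 0.086 in the fit without line sets, and the line-set difference of LY6E at 200 ng/ml ran from -0.058 to 0.34. Transcript calls of the 5 genes moved most, with 7 to 10 at 200 ng/ml (7 without A1, A2 or F2) and 5 to 8 at 20 ng/ml (6 without A1 or A2, 5 without D2) when samples were left out, and at 20 ng/ml 16 with DESeq2, 6 with only the groups compared and 6 without line sets. The change in the leading transcript's share was 0.66 percentage points for BST2 from estimated counts, and 1.97 for LY6E and 1.01 for PLSCR1 with the transcript leading in the controls. For TMEM140 it was -0.158 from estimated counts, and -15.5 to -2.86 when samples were left out. The cause of these changes was not tested.

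Replicate numbers did not pair the samples: deviations of same-numbered samples correlated at -0.05 to 0.06 between letters of a line set. With the replicate block the members called stayed at 5 at 200 and 5 at 20 ng/ml, the RTP4 difference at 20 ng/ml gave 0 calls, and 4 member transcripts were called at each dose. RTP4 in D, at 6 and 10 counts, and TMEM140 in the controls are the levels most limited by depth.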
